A study of Mus musculus with 24 samples.

Results

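Gene expression was compared between 3 ileal RNA libraries of mice given GW3965 and 3 of mice given vehicle, all of the genotype Abca1 fl/fl X Villin-Cre on the C57BL/6 strain. They are 6 of the 24 libraries of a study of ileum and liver, and the table behind them lists 40481 genes, of which 18656 reached the level needed for testing. All mice, the vehicle group included, had undergone a 75% small bowel resection. The treated mice received GW3965, a synthetic compound that activates the liver X receptors (LXR), as an oral dose of 1 mg/kg/day 2 times weekly over the last 5 of the 10 weeks that followed surgery. The carrier was 0.5% carboxymethyl cellulose, which the vehicle mice received alone. In these mice a Cre recombinase driven by the Villin promoter, which is active in the epithelium of the bowel, removes the floxed part of Abca1 there, and other cells keep the gene. Floxed mice without Cre (Abca1 fl/fl), with 3 vehicle and 3 GW3965 ileal libraries, entered the same fit and serve below as the other genotype. No group without resection and no Cre mouse without the floxed gene is part of the comparison, and age and sex are not in the labels used here.

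LXRs are nuclear receptors for oxysterols. With their partner RXR they switch on genes of sterol export, such as Abca1 and the Abcg5 and Abcg8 pair, and, through Srebf1, genes of fatty acid synthesis. The ileum absorbs what the upper bowel leaves, above all bile acids and vitamin B12, through a single layer of enterocytes that rises from dividing crypt cells and lies on layers of fibroblasts, nerves and smooth muscle. In whole tissue, fewer cells of a type and less RNA per cell cannot be told apart. The title of the series describes low-dose oral GW3965 as a way to activate LXR in the intestine alone.

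Levels are given as CPM, the reads of a gene scaled to the same total of assigned reads in each library, always in the order of replicates 1, 2 and 3, and as mean ± SD with n = 3 where a mean is given. Changes are log2 differences of GW3965 minus vehicle ± SE, taken on log2(CPM + 0.5), where the added 0.5 shrinks the change of genes near or below that level. A gene is called where the adjusted p of limma's moderated test over all 18656 genes was under 0.05. Depth was 17.1 to 19.5 M assigned reads in the vehicle and 21.1 to 24.2 M in the GW3965 libraries. Markers of the labelled tissue were present: in the vehicle libraries the ileal bile acid gene Fabp6 stood at 1182, 1176 and 1302 CPM and the epithelial gene Vil1 at 2660.4, 2624 and 2778 CPM, while the ileal hormone gene Fgf15 was under 1 CPM. The libraries of a group lay close together. Their variance was 2.64 to 3.30 times that of counting independent single reads within the 2 Villin-Cre groups (6 pairs). It was 29.3 to 32.2 times between them (9 pairs). Both mates of a pair were mostly counted, so counting alone already gives more variance than independent single reads. The spread beyond counting within a group is thus smaller than these ratios. No label says which animal a library came from, so the p-values measure only how far these libraries spread, which may be a technical spread. For that reason the counts of called list members are also given, as higher and lower "averaged" counts, from a fit in which close libraries count as 1 unit; the spread then rests on a single pair of units in the floxed GW3965 group, and a low averaged count does not show that a change is absent. Genes with near-identical copies (the Cyp2c, Cyp3a, Ces2, Gstm, defensin, histone and immunoglobulin families among them), and genes that overlap another gene on either strand, are uncertain: their reads may have been divided between copies or counted for a neighbour, and whether strand was used in counting is not stated in the labels used here.

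With GW3965, 4004 genes (21.5%) were higher and 5795 (31.1%) were lower than with vehicle, which together is 52.5% of the genes tested. The averaged counts were 580 and 881. The changes were uneven in size: 857 genes (4.59%) were at least 2-fold higher and 2270 (12.2%) at least 2-fold lower, and at least 16-fold changes were seen for 17 and 15 genes. The median change of all genes was -0.11, with an interquartile range of -0.59 to 0.28. The balance of higher and lower calls depends on how libraries are scaled. When the libraries were set to the same level of 8 genes found in all epithelial cells (Epcam, Cdh1, Cldn7, Krt8, Krt18, Elf3, Spint1 and St14; chosen after seeing the data), 2688 genes were higher and 7612 lower, which lowers the share of higher genes among the called from 40.9% to 26.1% and the median of all genes to -0.26. Without the reads of Gm26917 the counts were 3120 and 6981 (30.9% higher, median -0.21), and rescaled by the median of gene ratios they were 5043 and 4997 (50.2% higher, median -0.01). Without overlap between the 3 and 3 libraries, 4730 genes (25.4%) were higher and 6746 (36.2%) lower.

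Drug-metabolising enzymes, brush border enzymes and a few genes of other kinds led the genes that rose. Cyp2c55, a cytochrome P450 of the gut (chromosome 19), stood at 0.103, 0.117 and 0.108 CPM with vehicle and 158, 151 and 155 CPM with GW3965, with a log2 change of 7.99 ± 0.21 (adjusted p = 3.5e-14, limma). Plb1, a brush border phospholipase B, stood at 5.04, 4.27 and 3.77 CPM with vehicle and 348, 324 and 338 CPM with GW3965. Gstm3, a glutathione S-transferase, stood at 1.13, 1.17 and 0.215 CPM with vehicle and 76.8, 66.3 and 74.6 CPM with GW3965. All GW3965 libraries of these 3 genes lay far above all vehicle libraries. Lct, the lactase of the brush border, stood at 1.23, 0.526 and 0.323 CPM with vehicle and 58.9, 61.7 and 62.7 CPM with GW3965, and in floxed mice at no more than 5.75 CPM under either treatment. Lemd1 rose from 0.161 ± 0.142 to 31.7 ± 2.47 CPM. Wnt3a, a secreted Wnt ligand, stood at 0.103, 0 and 0 CPM with vehicle and 10.4, 9.24 and 11.1 CPM with GW3965. Slc6a2, the noradrenaline transporter, rose from 0.326 ± 0.100 to 21.8 ± 1.09 CPM, and Fam151a from 0.314 ± 0.137 to 16.6 ± 3.06 CPM. Lemd1, Wnt3a, Slc6a2 and Gstm3 were thus above 2.67 CPM in 1 of the 4 ileal groups, the Villin-Cre mice given GW3965. The list of the 12 genes with the largest rise is completed by Cyp3a11, Cyp3a25, Abcb1a and Ces2a, described with the other drug genes.

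**Figure D1:**
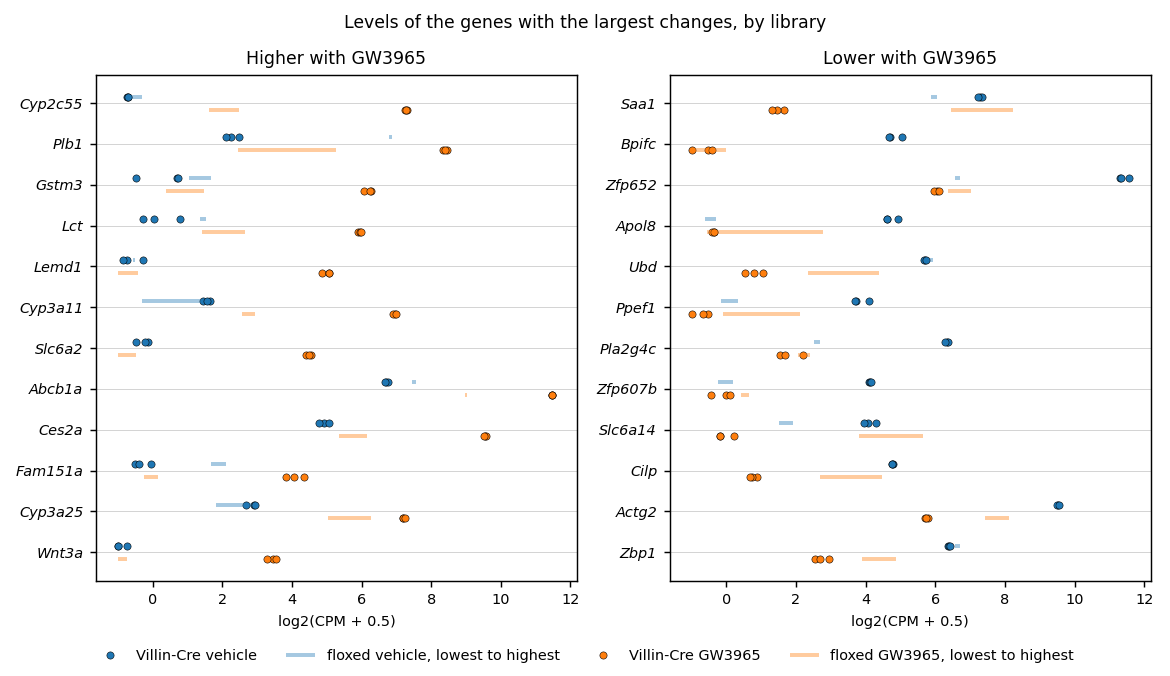
Levels of the 12 genes with the largest rise and the 12 with the largest fall, as log2(CPM + 0.5). Points are the 6 Villin-Cre libraries and pale bars span the 3 floxed libraries of the same treatment; in each of the 24 genes the 3 vehicle and 3 GW3965 points do not overlap, and for Zfp652, Bpifc, Zfp607b, Apol8, Ppef1 and Pla2g4c the Villin-Cre vehicle points stand away from all other ileal libraries.

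Saa1, an acute phase protein made by epithelium in contact with bacteria, had the largest log2 fall among the genes ranked. It stood at 156, 162 and 148 CPM with vehicle and 2.64, 2.23 and 1.99 CPM with GW3965, a log2 change of -5.81 ± 0.31 (adjusted p = 9.8e-11, limma). By the plain ratio of mean CPM, GW3965 over vehicle, Bpifc (0.0052), Ppef1 (0.0075) and Apol8 (0.0105) fell further than Saa1 (0.0148). The added 0.5 CPM shrinks the change of such low genes more. Ubd, a ubiquitin-like modifier induced by interferon, fell from 51.6 ± 1.26 to 1.25 ± 0.308 CPM. Pla2g4c, a cytosolic phospholipase A2, fell from 79.9 ± 2.91 to 3.08 ± 0.919 CPM, Slc6a14, an amino acid transporter, from 16.9 ± 2.18 to 0.472 ± 0.163 CPM, and Cilp, a matrix protein, from 26.6 ± 0.569 to 1.19 ± 0.120 CPM. Apol8 fell from 25.9 ± 3.57 to 0.272 ± 0.0209 CPM and Ppef1 from 13.9 ± 2.22 to 0.104 ± 0.0960 CPM. Actg2, the smooth muscle gamma-actin, and Zbp1, a sensor of nucleic acids induced by interferon, complete this group and return with their lists. For some of the largest falls the Villin-Cre vehicle group stood apart from every other ileal library. The floxed vehicle libraries of Apol8 (0.148 to 0.315 CPM), Ppef1 (0.395 to 0.765 CPM) and Pla2g4c (5.23 to 5.94 CPM) were far below it. Zfp652, a zinc finger gene, stood at 2547, 2582 and 3007 CPM with vehicle and 65.4, 61.6 and 67.8 CPM with GW3965, against 94.3 to 105 CPM in floxed vehicle and 82.4 to 130.3 CPM in floxed GW3965 libraries. Bpifc stood at 32.6, 25.6 and 25.1 CPM in the vehicle libraries and at no more than 0.486 CPM in all other ileal libraries, and Zfp607b, another zinc finger gene, at 16.4, 16.8 and 17.4 CPM against at most 1.07 CPM. Among the 857 genes at least 2-fold higher, all 3 GW3965 libraries lay outside the range of the other 9 ileal libraries for 551, the vehicle libraries did so for 53, both groups for 151 and neither for 102. Among the 2270 genes at least 2-fold lower, the same counts were 1474, 169, 377 and 250. Choosing genes by a 2-fold difference between these groups itself favours groups that stand apart. The shares over all genes tested are not given, so these counts only describe the chosen genes.

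The 250 bases before the starts of 5 genes with some of the largest rises, and the stretch between the starts of Abcg5 and Abcg8, are shown because nuclear receptors act by binding short sequences in such regions. They come from RefSeq (GRCm38.p6), whose gene starts can differ from those of the annotation used for gene coordinates, read 5′ to 3′ on the strand of the gene, and capitals mark AGGTCA or AGTTCA, hexamers that nuclear receptors such as LXR, PXR and RXR can bind, and CAAAGTCCA, a site of the enterocyte factor HNF4, each in either orientation. They lie at chr19:39006769-39007018 (plus strand), chr5:145879855-145880104 (minus), chr5:8566841-8567090 (plus), chr8:104733753-104734002 (plus), chr1:128328319-128328568 (minus) and chr17:84683012-84683120 (plus, the strand of Abcg8). The Abcb1a window belongs to a RefSeq start far upstream of the gene start in the coordinates used here (chr5:8660077), so its match is not close to that start.
Cyp2c55: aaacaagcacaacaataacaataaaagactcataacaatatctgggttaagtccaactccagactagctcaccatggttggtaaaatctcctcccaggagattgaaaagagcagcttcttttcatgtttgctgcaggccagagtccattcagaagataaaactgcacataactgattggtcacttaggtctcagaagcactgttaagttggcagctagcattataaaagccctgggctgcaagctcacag
Cyp3a11: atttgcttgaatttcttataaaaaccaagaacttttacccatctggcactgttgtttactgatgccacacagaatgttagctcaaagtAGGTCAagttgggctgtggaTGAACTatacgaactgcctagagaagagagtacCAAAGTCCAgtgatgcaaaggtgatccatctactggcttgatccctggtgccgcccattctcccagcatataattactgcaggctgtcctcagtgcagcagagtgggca
Abcb1a: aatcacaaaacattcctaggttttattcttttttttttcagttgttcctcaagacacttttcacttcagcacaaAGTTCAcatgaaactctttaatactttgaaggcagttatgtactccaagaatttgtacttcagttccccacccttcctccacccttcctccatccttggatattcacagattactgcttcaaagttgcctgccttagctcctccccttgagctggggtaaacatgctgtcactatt
Ces2a: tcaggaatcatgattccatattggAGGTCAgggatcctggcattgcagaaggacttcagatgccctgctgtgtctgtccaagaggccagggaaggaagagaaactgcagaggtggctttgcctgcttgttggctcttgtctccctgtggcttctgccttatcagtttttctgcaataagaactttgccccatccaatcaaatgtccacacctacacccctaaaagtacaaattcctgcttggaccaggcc
Lct: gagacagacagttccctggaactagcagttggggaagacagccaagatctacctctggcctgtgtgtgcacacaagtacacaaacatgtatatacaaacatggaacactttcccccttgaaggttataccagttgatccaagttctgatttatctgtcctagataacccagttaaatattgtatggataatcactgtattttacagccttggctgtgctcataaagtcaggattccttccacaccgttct
Abcg5 to Abcg8: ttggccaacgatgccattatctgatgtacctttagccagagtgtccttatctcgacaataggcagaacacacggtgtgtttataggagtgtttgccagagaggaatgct

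The Cyp3a11 window held a match to each of these 3 motifs, Abcb1a a match to AGTTCA, Ces2a a match to AGGTCA, and the others none, and no matches overlapped. Over the 12415 of 18653 tested gene symbols with at least 1 RefSeq window, 13.6% held AGGTCA within the 250 bases before a start, 10.8% held AGTTCA and 0.516% held CAAAGTCCA. Among the 599 genes at least 2-fold higher that have a window, the shares were 17.4%, 13.4% and 1.50%, and among 1552 genes at least 2-fold lower they were 13.4%, 11.6% and 0.387%. Among 58 drug metabolism genes that rose, 12 held AGGTCA (20.7%), 8 held AGTTCA (13.8%) and 4 held CAAAGTCCA (6.90%). The gapped repeats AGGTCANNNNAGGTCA, AGGTCANNNNAGTTCA and TGAACTNNNNNNAGTTCA, searched too, had no match in the 12415 genes. A match to such letters is a description of the window, not a bound site.

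Abca1, the deleted gene (chromosome 4, chr4:53030787-53159895, GRCm38), was low in both groups and still rose with GW3965. It stood at 25.7, 30.6 and 28.5 CPM with vehicle and 53.7, 53.7 and 54 CPM with GW3965, a log2 change of 0.92 ± 0.14 (adjusted p = 4.3e-05, limma). In floxed mice it stood at 54.2 to 59.9 CPM with vehicle and 251 to 438 CPM with GW3965, so that the Villin-Cre GW3965 libraries did not exceed the floxed vehicle libraries. The difference in change, Villin-Cre minus floxed, was -1.73 ± 0.20 (adjusted p = 5.9e-06, limma). The values sum reads over the whole gene and over all cells of the tissue, and the labels used here do not name the floxed exons.

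The other LXR targets did not move together. Of 25 tested members, Abca1 included, 11 rose, 10 fell and 4 were not called, with a median change of 0.04 (averaged counts 4 and 1; 11 and 6 after rescaling by the median of gene ratios and 10 and 12 after epithelial rescaling). Abcg5, which with Abcg8 returns sterols to the gut lumen, stood at 116, 114 and 119 CPM with vehicle and 284, 286 and 294 CPM with GW3965. Abcg8 stood at 128, 126 and 129.6 CPM with vehicle and 310.1, 306 and 301 CPM with GW3965, and in neither gene did the groups overlap. Mylip, which marks the LDL receptor for degradation, stood at 20.9, 18.6 and 18.1 CPM with vehicle and 43.1, 46.4 and 44.1 CPM with GW3965. Lpcat3, which puts polyunsaturated fatty acids into phospholipids, rose by 1.16 ± 0.10, Scd1, a desaturase, by 1.09 ± 0.06, and Apoc2, the cofactor of lipoprotein lipase, by 1.64 ± 0.41. Smaller rises were called for Abcc10 (0.45 ± 0.06), Nr1h3, which encodes LXR-alpha (0.48 ± 0.10), Apoc1 (0.69 ± 0.22) and Abcg1 (0.38 ± 0.15).

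Some targets of LXR went down. Fasn, the fatty acid synthase, stood at 308, 292 and 320.2 CPM with vehicle and 142, 150.0 and 133 CPM with GW3965, a change of -1.11 ± 0.09. Slc2a4, the insulin-regulated glucose transporter of muscle and fat, fell from 28.7 ± 2.45 to 5.87 ± 0.856 CPM, and Pltp, the phospholipid transfer protein of plasma, from 10.8 ± 1.11 to 4.10 ± 0.456 CPM. Smaller falls were called for Acaca, which supplies malonyl-CoA to Fasn (-0.31 ± 0.07), Arl4c (-0.98 ± 0.32), Myo1d (-0.30 ± 0.05), Smpdl3a (-0.24 ± 0.09), Apoe (-0.24 ± 0.08), Rgs16 (-0.76 ± 0.31) and Nr1h2, which encodes LXR-beta (-0.17 ± 0.05). Not called were Srebf1, the lipogenic factor (80.9, 72 and 80.5 CPM with vehicle, 82.1, 83.3 and 83 CPM with GW3965), Scd2 (0.04 ± 0.21), Lpl (-0.18 ± 0.09) and Ttc39b (-0.15 ± 0.11). The call of Abcg1 was lost without each single library other than GW3965 replicate 2, and that of Rgs16 without each library other than GW3965 replicate 3. The call of Apoc1 was lost without vehicle replicate 3, that of Apoe without vehicle replicate 3 or GW3965 replicate 1, that of Arl4c without vehicle replicate 2 or GW3965 replicate 3, and that of Smpdl3a without vehicle replicate 1 or 3 or GW3965 replicate 2 or 3; the call of Nr1h2 was lost after rescaling by the median of gene ratios.

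Set against floxed mice, most of these changes were smaller or of the other sign. The difference in change, Villin-Cre minus floxed, was -2.14 ± 0.24 for Srebf1 (adjusted p = 3.4e-06, limma). It was also below 0 for Scd2 (-2.40 ± 0.30), Abcg1 (-1.84 ± 0.21), Slc2a4 (-1.79 ± 0.18), Arl4c (-1.50 ± 0.45), Fasn (-1.27 ± 0.12), Pltp (-1.01 ± 0.18), Mylip (-0.97 ± 0.13), Abcg5 (-0.96 ± 0.10), Lpl (-0.91 ± 0.13), Abcg8 (-0.83 ± 0.09), Acaca (-0.81 ± 0.10), Scd1 (-0.75 ± 0.08), Smpdl3a (-0.63 ± 0.13) and Myo1d (-0.38 ± 0.07). It was above 0 for Apoc2 (2.06 ± 0.57), Ttc39b (1.12 ± 0.16) and Nr1h3 (0.37 ± 0.14). No difference passed the threshold for Lpcat3 (0.36 ± 0.14, adjusted p = 0.066, limma), Abcc10 (-0.21 ± 0.09), Nr1h2 (-0.18 ± 0.07), Apoc1 (-0.15 ± 0.31), Apoe (0.19 ± 0.11) or Rgs16 (-0.99 ± 0.44). Over all genes, the change differed between genotypes for 6154 (33.0%), above 0 for 2729 (14.6%) and below 0 for 3425 (18.4%); with close libraries averaged this count was 14. Markers of other cells differed too: for Acta2, the smooth muscle alpha-actin, this difference was -1.84 ± 0.11. Their part in these differences was not tested.

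**Figure D2:**
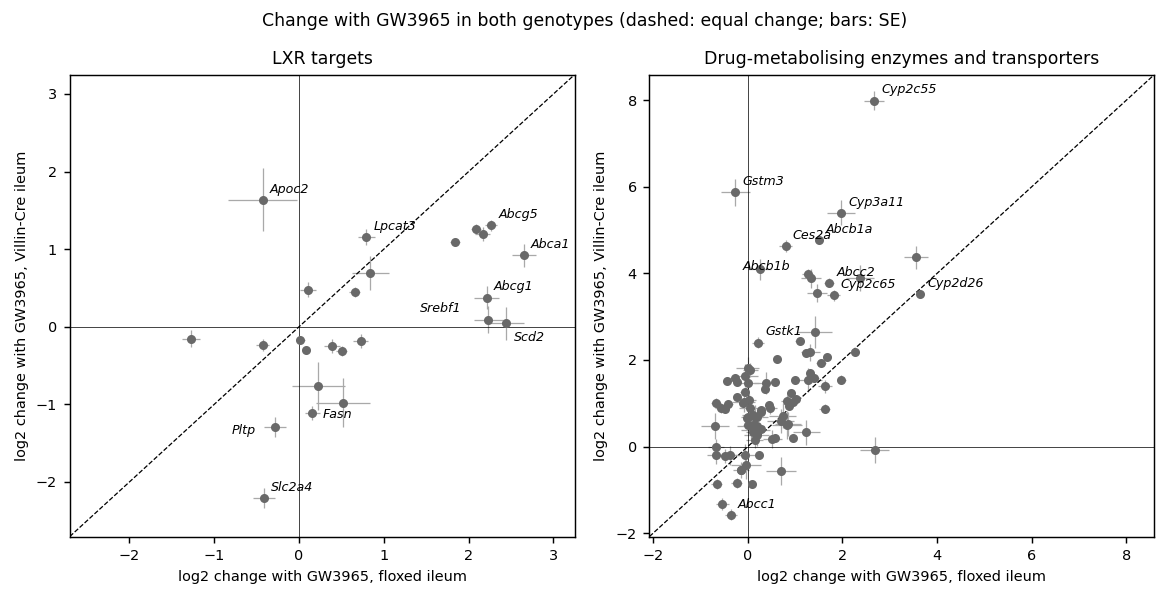
Change with GW3965 in floxed (horizontal) and Villin-Cre (vertical) ileum, as log2 differences with SE bars, for the tested LXR targets (left) and drug genes (right). The dashed line marks an equal change: Abca1, Abcg1, Srebf1 and Scd2 lie well below it, and Cyp2c55, Gstm3, Abcb1a and Ces2a well above.

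Genes that take up, modify and expel foreign compounds rose as a broad group. The receptors PXR and CAR switch on many of them. Of 29 cytochrome P450 genes tested, 20 rose and 1 fell (median 1.46, averaged counts 17 and 0). Cyp3a11, which oxidises a wide range of drugs and steroids, stood at 2.62, 2.22 and 2.48 CPM with vehicle and 125, 119 and 127 CPM with GW3965 (chr5:145854426-145879964). Its neighbour Cyp3a25 stood at 6.99, 5.90 and 7.11 CPM with vehicle and 146, 144 and 150.4 CPM with GW3965. Cyp2c65 stood at 6.47, 6.14 and 7.0 CPM with vehicle and 80.2, 74.7 and 80.4 CPM with GW3965. In all 3 genes the lowest GW3965 library was more than 10 times the highest vehicle library. Cyp2d26 rose by 3.52 ± 0.08, Por, which hands electrons to all microsomal P450 enzymes, by 2.02 ± 0.06, and Cyp4f14, the list's most abundant member, from 597 ± 15 to 1147 ± 25.9 CPM. Cyp1b1 went the other way (-1.33 ± 0.14). Cyp2c38 and Cyp2c54 were at 0 reads in all 6 libraries.

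Conjugating enzymes followed. Of 20 glutathione genes, 15 rose and 1, Gstm2, fell, a call lost without vehicle or GW3965 replicate 3 (median 0.88, averaged counts 5 and 0). Gstk1, the mitochondrial and peroxisomal transferase, stood at 4.83, 5.78 and 5.71 CPM with vehicle and 29.5, 30.5 and 32.5 CPM with GW3965. Gstm1 rose by 1.14 ± 0.08, Mgst1 by 1.00 ± 0.07, and the abundant Gsto1 and Mgst3 by 0.66 ± 0.06 and 0.69 ± 0.09. Of 30 genes of glucuronidation, sulfation and ester cleavage, 23 rose and 0 fell (median 1.03, averaged counts 12 and 0). Ces2a, a carboxylesterase that splits ester drugs and acylglycerols, stood at 29.9, 33.1 and 26.9 CPM with vehicle and 745, 764 and 738 CPM with GW3965. Ephx2, the soluble epoxide hydrolase, rose by 2.06 ± 0.07, Ugt2b34 by 1.48 ± 0.06 and Ces2e by 1.03 ± 0.04.

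Among 19 drug transporters, 11 rose and 5 fell (averaged counts 8 and 2). Abcb1a, the P-glycoprotein that pumps drugs back into the lumen, had the smallest p of all the genes named here. It stood at 104, 107 and 102 CPM with vehicle and 2842, 2819.8 and 2859 CPM with GW3965, a change of 4.76 ± 0.05 (adjusted p = 5.3e-20, limma), and the groups were far apart. Its neighbour Abcb1b stood at 4.78, 4.97 and 6.14 CPM with vehicle and 85.8, 94.8 and 91.6 CPM with GW3965. Abcc2, the apical exporter of conjugates, stood at 61.2, 59.8 and 59 CPM with vehicle and 855, 807 and 829 CPM with GW3965. Slc47a1, an exporter of organic cations, rose by 2.19 ± 0.09 and Slc15a1, the peptide transporter PEPT1, by 2.16 ± 0.10. The exporters Abcc1 (-1.58 ± 0.13), Abcc3 (-0.86 ± 0.06) and Abcc4 (-0.83 ± 0.12) and the uptake carriers Slco2b1 (-0.86 ± 0.11) and Slco3a1 (-0.53 ± 0.08) fell. Abcc2 and Abcb1a are pumps of the apical membrane, whereas Abcc1 and Abcc3 sit on the basolateral side. The carriers did not divide by side throughout: Slc51a, a subunit of a basolateral exporter in another list, rose. A split by side was not tested.

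Neighbouring genes rose together at several of these loci. In runs of at least 3 consecutive tested protein-coding genes that all rose at least 2-fold, 12 had 3 genes, 6 had 4 and 2 had 5. Those named here were chosen after their values were seen. Cyp3a16, Cyp3a44, Cyp3a11, Cyp3a25 and Cyp3a59 formed a run of 5 (chr5:145436309-146113287, smallest change 1.46). Ces2a, Ces2b, Ces2c and Ces2e formed another (chr8:104734003-104934672, smallest 1.03), as did Cyp2c55, Cyp2c65, Cyp2c66 and Cyp2c68 (chr19:39007019-39741054, smallest 1.39) and Rundc3b, Abcb1a, Abcb1b and Abcb4 (chr5:8490334-8959231, smallest 1.99). Runs of genes that fell numbered 68 of 3 genes, 17 of 4, 2 of 5 and 1 of 7. The last was a stretch of histone genes on chromosome 13 from Hist1h2af to Hist1h2ae (chr13:23533906-23571220). Over all genes tested, 12.2% were at least 2-fold lower and 4.59% at least 2-fold higher. Whether runs were more frequent than these shares give was not tested, in either direction. Many of the neighbours named here are copies of each other, so reads could be split or shared among them.

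Of 38 nuclear receptors and their partners, 21 rose and 8 fell (averaged counts 4 and 1; 22 and 5 after rescaling by the median of gene ratios and 18 and 13 after epithelial rescaling). Nr1i2, which encodes PXR, stood at 78.5, 79.6 and 82 CPM with vehicle and 113, 112 and 112 CPM with GW3965, and Nr1i3, which encodes CAR, was at most 5.71 CPM in any of the 6 libraries; both rose and were singled out after their values were seen. Ppara, the fatty acid receptor, stood at 13.6, 14 and 14.2 CPM with vehicle and 36.1, 35.9 and 37.2 CPM with GW3965. Hnf4a, a central factor of enterocytes, stood at 823, 793 and 854 CPM with vehicle and 1097, 1095 and 1098 CPM with GW3965. Vdr, the vitamin D receptor, rose by 0.34 ± 0.05. The immediate early receptors Nr4a1 (-2.21 ± 0.21) and Nr4a3 (-1.17 ± 0.19) and the coactivator Ppargc1b (-0.88 ± 0.12) fell. Of 19 genes of the NRF2 oxidative stress response, 11 rose and 2 fell (averaged counts 2 and 0; 11 and 2 after rescaling by the median of gene ratios and 9 and 5 after epithelial rescaling). Gclc and Gclm, the subunits of the enzyme that starts glutathione synthesis, rose from 34.1 ± 3.31 to 111 ± 4.71 CPM and from 36.6 ± 3.28 to 113 ± 5.31 CPM, while Gsr, which recycles glutathione, fell from 231 ± 6.53 to 139.8 ± 5.13 CPM.

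Genes of the absorptive enterocyte rose. All 25 tested enterocyte markers rose (median 0.96), 6 of them with close libraries averaged, and all 25 after epithelial rescaling. Their summed level was 31959 to 32567 CPM with vehicle and 67854 to 69104 CPM with GW3965. Alpi, the intestinal alkaline phosphatase, stood at 340.2, 332 and 365 CPM with vehicle and 1533, 1525 and 1514 CPM with GW3965. Clca4a stood at 203, 196 and 196 CPM with vehicle and 943, 894 and 923 CPM with GW3965. Anpep, the most abundant protein-coding gene of these libraries after mt-Co1, stood at 8608, 8591 and 8895 CPM with vehicle and 14165, 14087 and 14079 CPM with GW3965. Of 18 genes typical of the villus tip, 15 rose and 3 fell (averaged counts 6 and 0), among them the nucleoside carrier Slc28a2 (2.89 ± 0.11) and, as exceptions, Bmp2 (-0.40 ± 0.08), Egfr (-0.20 ± 0.08) and Xdh (-0.89 ± 0.07). Beside this rise, the summed level of 20 smooth muscle markers was 13036 to 13587 CPM with vehicle and 2405 to 2427 CPM with GW3965; its part in the rise was not tested.

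**Figure D3:**
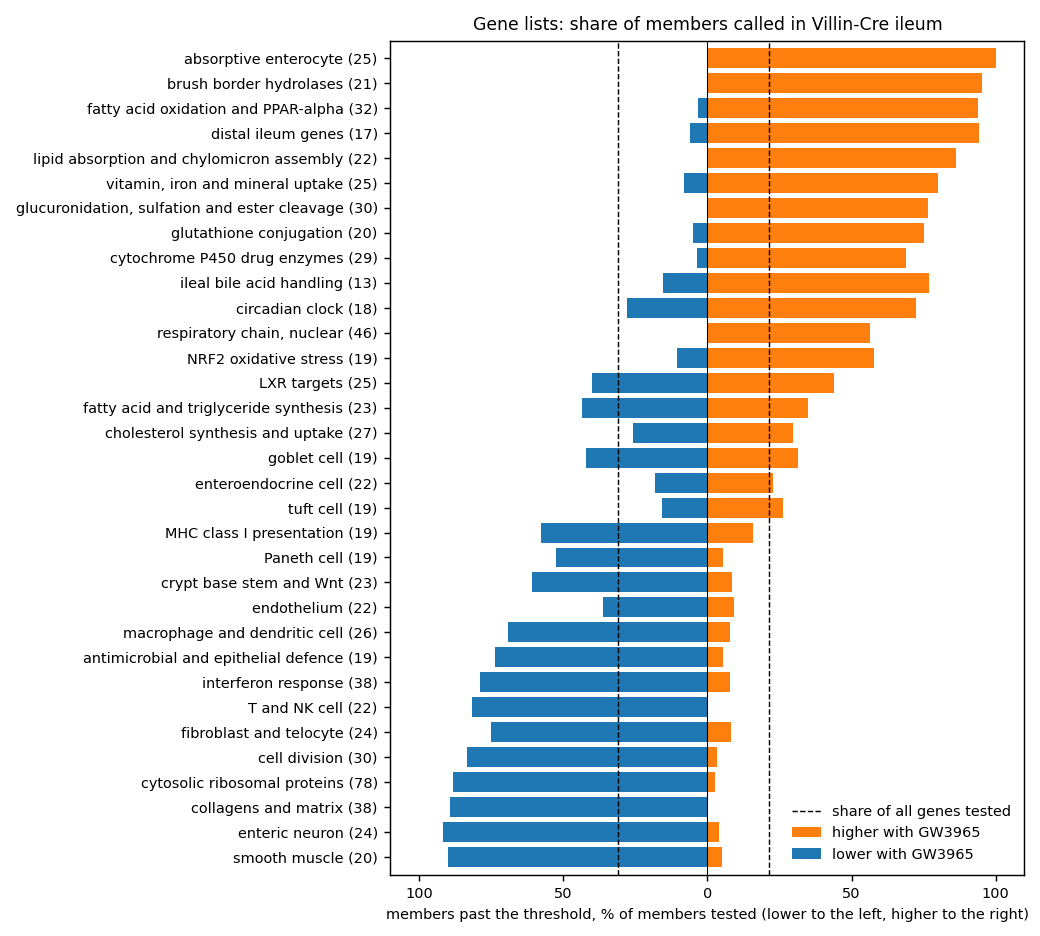
Share of the tested members of 33 gene lists called higher (right, orange) or lower (left, blue) with GW3965, with the number tested in brackets; the dashed lines mark the 21.5% and 31.1% of all genes. Enterocyte, brush border and fatty acid oxidation lists lie far right of the line, smooth muscle, neuron and matrix lists far left, and LXR targets and lipid synthesis on both sides.

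At the brush border, 20 of 21 hydrolases rose and 0 fell (median 1.33, averaged counts 11 and 0). Enpp7, which splits dietary sphingomyelin, stood at 76.5, 74.1 and 73.8 CPM with vehicle and 386, 383 and 385 CPM with GW3965. Treh, which splits trehalose, rose from 108 ± 2.77 to 370.2 ± 0.226 CPM, and Naaladl1, a peptidase, from 2518 ± 54.7 to 7256 ± 94.9 CPM. Among 22 genes of lipid absorption, 19 rose and 0 fell (averaged counts 6 and 0). Fabp2, which carries fatty acids inside the enterocyte, stood at 695, 690.5 and 642 CPM with vehicle and 3346, 3331 and 3310.3 CPM with GW3965. Creb3l3, a factor that drives apolipoprotein genes, stood at 71.5, 69.5 and 65.7 CPM with vehicle and 350.0, 333 and 334 CPM with GW3965. Tm4sf5 rose by 1.81 ± 0.06, although it fell in floxed libraries from 90.6 to 51.4 CPM on average. Apoa1, the protein that ABCA1 loads with cholesterol, stood at 2867, 2826 and 2926 CPM with vehicle and 9672, 9595 and 9546 CPM with GW3965. Apob, the backbone of chylomicrons, rose from 3483 ± 98.9 to 9189 ± 249.8 CPM, and Apoc3, which slows triglyceride clearance, from 29.3 ± 1.50 to 95.2 ± 3.75 CPM. Of 19 genes of circulating lipoproteins, 7 rose and 3 fell (averaged counts 1 and 0; 8 and 2 after rescaling by the median of gene ratios and 7 and 5 after epithelial rescaling); the lipase gene Lipg was among the latter (-1.02 ± 0.31). The sterol importer Npc1l1 rose from 898 ± 13.7 to 1754 ± 39.4 CPM.

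Bile acid handling, the ileum's own task, rose as well: 10 of 13 genes rose and 2 fell (averaged counts 6 and 1). Slc10a2, which takes bile acids up from the lumen, stood at 235, 231 and 238 CPM with vehicle and 477, 453 and 444 CPM with GW3965. Fabp6, which carries them through the cell, stood at 1182, 1176 and 1302 CPM with vehicle and 5170.1, 5266 and 5053 CPM with GW3965. Slc51a, a subunit of the basolateral exporter, rose from 426 ± 16.7 to 1272 ± 14.3 CPM. Fgf15, the hormone by which the ileum slows bile acid synthesis in liver, stood at 0.719, 0.467 and 0.646 CPM with vehicle and 17.3, 13.2 and 15.3 CPM with GW3965; it was singled out after its values were seen, and the floxed libraries spanned 1.59 to 1.73 CPM in floxed vehicle and 0.828 to 22.6 CPM in floxed GW3965 libraries. The members that fell were Abcc3 and the bile acid receptor Gpbar1, whose level was near 1 CPM and whose call was lost without vehicle replicate 2 or 3 or GW3965 replicate 1 or 2. Of 17 genes typical of the distal ileum, 16 rose (averaged count 11), among them Cubn, the receptor for vitamin B12 with its carrier (from 1093 ± 7.07 to 4343 ± 128 CPM), Guca2b, uroguanylin (from 111 ± 7.30 to 454 ± 1.18 CPM), Ggt1 (from 353 ± 12.2 to 757 ± 10.7 CPM) and Muc3, a membrane mucin (from 1088 ± 35 to 2847 ± 23.9 CPM). Hoxd8, a positional gene, fell (-0.86 ± 0.23). Of 16 genes typical of the proximal bowel, 14 rose too (averaged count 6), with Lct and Cyp3a11 in front and Onecut2, a duodenal factor, falling (-1.88 ± 0.32). Most genes of both regional lists thus rose.

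Carriers of sugars, amino acids, vitamins and minerals followed the same pattern with more exceptions. Among sugar genes, 14 of 24 rose and 3 fell (averaged counts 6 and 0). Pck1, the entry enzyme of glucose production, stood at 42.1, 36.2 and 40.8 CPM with vehicle and 475, 485 and 477 CPM with GW3965. Slc5a4a rose by 3.38 ± 0.22, the fructose carrier Slc2a5 by 1.46 ± 0.09 and the glucose carrier Slc5a1 by 0.77 ± 0.05. Hk1 (-0.62 ± 0.08), Hk2 (-1.34 ± 0.12) and Slc2a1 (-0.54 ± 0.13), which serve glycolysis, fell. Other glycolysis genes of the list, Pfkp, Tpi1 and Ldha, were called higher and are named here outside the naming rule. Among amino acid carriers, 12 of 20 rose and 5 fell (averaged counts 5 and 2). Slc7a15 stood at 36.5, 45.6 and 45.2 CPM with vehicle and 439, 425 and 430.0 CPM with GW3965. Slc6a19, the main carrier of neutral amino acids, rose from 652 ± 12.3 to 1801 ± 6.67 CPM. Slc38a2 (-0.90 ± 0.08), Slc1a5 (-0.44 ± 0.08) and Slc7a5 (-1.15 ± 0.26), carriers typical of growing cells, fell. Of 25 vitamin, iron and mineral genes, 20 rose and 2 fell (averaged counts 12 and 0). The riboflavin carrier Slc52a3 rose from 186 ± 8.08 to 555 ± 7.94 CPM and the zinc carrier Slc39a4 from 206 ± 2.07 to 655 ± 19 CPM, while the phosphate carrier Slc34a2 fell from 1005 ± 18.7 to 605 ± 0.747 CPM.

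Fatty acid oxidation rose: 30 of 32 genes were higher and 1, Cyp4a14, was lower at under 0.5 CPM (median 0.77, averaged counts 9 and 0). Peroxisomal genes had the smallest p-values of the list. Acaa1b, a peroxisomal thiolase, stood at 4.62, 4.15 and 3.93 CPM with vehicle and 83.1, 88.7 and 74.1 CPM with GW3965. Hsd17b4 rose from 80.4 ± 5.23 to 286 ± 2.54 CPM and Abcd3, a carrier of the peroxisomal membrane, from 142 ± 1.48 to 352 ± 9.47 CPM. Nuclear genes of the respiratory chain rose by less: 26 of 46 were called higher and none lower (median 0.23), but after epithelial rescaling 12 were higher and 7 lower, without Gm26917 15 and 5, and the averaged counts were 0 and 0. Uqcrb rose by 0.72 ± 0.07, Atp5o by 0.56 ± 0.07 and Sdha by 0.40 ± 0.05. Of the 15 RNAs encoded in mitochondria, 5 rose and 2 fell (averaged counts 0 and 0; 6 and 0 after rescaling by the median of gene ratios and 1 and 3 after epithelial rescaling). The cytochrome oxidase gene mt-Co1 stood at 10479.9, 10529 and 8869 CPM with vehicle and 16769, 14496 and 16089.7 CPM with GW3965, and mt-Nd1 was -0.33 ± 0.12 with overlapping groups. Leaving out a single library gave 2 to 5 higher and 0 to 2 lower, the 2 higher without vehicle replicate 3 or GW3965 replicate 3 and 0 lower without vehicle replicate 1 or 2 or GW3965 replicate 2.

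Genes of cytosolic ribosomal proteins went the opposite way. Of 78 tested, 69 fell and 2 rose, with a median of -0.59 (averaged counts 0 and 5). Their summed level was 6500.4 to 6724 CPM with vehicle and 4512 to 4523 CPM with GW3965. Rps2 stood at 240.1, 229 and 241 CPM with vehicle and 106, 101 and 105 CPM with GW3965, and Rpl12 fell by 1.26 ± 0.07. The exceptions were Fau (0.26 ± 0.05) and Rpl28 (0.16 ± 0.05); after epithelial rescaling Fau was not called and Rpl28 was -0.03, and the call of Rpl28 was also lost without vehicle replicate 1 or GW3965 replicate 3.

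Genes of lipid synthesis moved in both directions. The shares higher and lower were 29.6% and 25.9% for cholesterol and 34.8% and 43.5% for fatty acids and triglycerides, against 21.5% and 31.1% of all genes tested. For cholesterol synthesis and uptake, 8 of 27 genes rose and 7 fell (median -0.11, averaged counts 1 and 1; 13 and 6 after rescaling by the median of gene ratios and 5 and 14 after epithelial rescaling). The late enzyme Sc5d stood at 53.3, 47.4 and 50.7 CPM with vehicle and 107, 110.1 and 114 CPM with GW3965, a rise of 1.12 ± 0.10, and the sterol carrier Stard4 rose by 0.75 ± 0.07. The mevalonate enzymes Mvk (-0.78 ± 0.09), Pmvk (-1.02 ± 0.11), Mvd (-0.83 ± 0.12) and Fdps (-0.47 ± 0.07), and Sqle, which makes squalene epoxide (-0.40 ± 0.09), fell. Of 23 genes of fatty acid and triglyceride synthesis, 8 rose and 10 fell (averaged counts 2 and 1). Those that rose included Elovl1 (1.15 ± 0.06), which lengthens fatty acids, the activating enzymes Acsl3 (1.61 ± 0.10) and Acsl5 (0.97 ± 0.07), and the acyltransferases of triglyceride assembly Dgat1 (0.68 ± 0.05), Dgat2 (0.50 ± 0.06), Mogat2 (0.53 ± 0.05) and Agpat2 (0.69 ± 0.06). In the same list Fasn and Acaca fell, as given above.

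Crypt and cell division genes fell. Of 30 cell division genes, 25 fell and 1, Pcna, rose (0.50 ± 0.11), with a median of -1.33 (averaged counts 0 and 12). Mki67, a marker of dividing cells, stood at 52.2, 51.9 and 55.7 CPM with vehicle and 14.7, 14.6 and 14.9 CPM with GW3965. Ccna2 fell from 9.33 ± 1.51 to 1.80 ± 0.247 CPM, Top2a from 30.1 ± 1.01 to 7.18 ± 0.528 CPM and Ube2c from 5.21 ± 0.733 to 0.666 ± 0.122 CPM. Among 23 stem cell and Wnt genes, 14 fell and 2 rose (averaged counts 1 and 8). Smoc2, a stem cell marker, stood at 36.5, 34.6 and 38.2 CPM with vehicle and 9.73, 12.2 and 9.52 CPM with GW3965. Lrig1, a brake on growth factor receptors, fell from 62.7 ± 3.64 to 23 ± 0.515 CPM, and Cd44 from 33.9 ± 2.48 to 10.5 ± 2.13 CPM. The Wnt targets Rnf43 (0.87 ± 0.07) and Sp5 (1.60 ± 0.22) rose, and Axin2, another, was not called (0.17 ± 0.13).

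Among the secretory lineages, 22.7% and 18.2% of hormone cell genes and 26.3% and 15.8% of tuft cell genes were higher and lower, against 21.5% and 31.1% of all genes tested. Of 19 goblet cell genes, 6 rose and 8 fell; the counts were 7 and 5 after rescaling by the median of gene ratios and 2 and 10 after epithelial rescaling, and 3 rose without vehicle replicate 1, vehicle replicate 2 or GW3965 replicate 2 (averaged counts 1 and 1). Zg16, which keeps bacteria off the mucus, rose from 637 ± 6.32 to 1116 ± 16 CPM, and Clca1 fell from 1018 ± 24.8 to 702 ± 11.9 CPM. Spink4, a protease inhibitor, stood at 25.5, 23.9 and 29.3 CPM with vehicle and 6.47, 6.23 and 6.06 CPM with GW3965. Of 19 Paneth cell genes, 10 fell and 1 rose, but 4 fell without vehicle replicate 2, 5 without vehicle replicate 3 and 6 without GW3965 replicate 1, 2 or 3, 1 fell with voom, and the averaged counts were 0 and 0. Defa22, an alpha-defensin, stood at 22.7, 23.6 and 24.4 CPM with vehicle and 10.2, 9.08 and 9.43 CPM with GW3965. Pnliprp2, a lipase, rose by 1.64 ± 0.25, and lysozyme (Lyz1) was not called (-0.57 ± 0.43). Of 22 hormone cell genes, 5 rose and 4 fell: Nts, neurotensin of the distal bowel, rose from 30.2 ± 3.22 to 74.9 ± 2.58 CPM, and Cpe, a prohormone processing enzyme also used by nerves, fell from 85.1 ± 3.64 to 20.2 ± 0.179 CPM (averaged counts 1 and 2; 8 and 4 after rescaling by the median of gene ratios and 5 and 4 after epithelial rescaling). Of 19 tuft cell genes, 5 rose and 3 fell, with 2 rising without vehicle replicate 2 or GW3965 replicate 2 or 3, 3 without vehicle replicate 3 or GW3965 replicate 1, 9 after rescaling by the median of gene ratios and 1 after epithelial rescaling (averaged counts 0 and 0).

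Antimicrobial genes of the epithelium were lower. Of 19 tested, 14 fell and 1, Reg3a, rose (0.58 ± 0.11), with a median of -1.82 (averaged counts 0 and 7). Dmbt1, a scavenger protein that binds bacteria, stood at 741, 712 and 760.1 CPM with vehicle and 66, 58.7 and 65.1 CPM with GW3965. Reg3g, a lectin that kills bacteria, stood at 1409.8, 1372 and 1407 CPM with vehicle and 153, 153 and 153 CPM with GW3965, and the related Reg3b fell from 3211 ± 26.9 to 528 ± 19.3 CPM. Pigr, the receptor that carries IgA into the lumen, stood at 2097, 2106 and 2108 CPM with vehicle and 535, 510.4 and 525 CPM with GW3965. Lypd8, which holds flagellated bacteria away, fell from 787 ± 32.2 to 231 ± 12.1 CPM. The 3 libraries of each group were close in all 5 genes and the groups did not overlap.

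Interferon-induced genes fell in the same libraries: 30 of 38 were lower and 3 higher (median -1.23, averaged counts 0 and 10). Zbp1 stood at 81.6, 84.3 and 84.9 CPM with vehicle and 7.18, 5.36 and 5.92 CPM with GW3965. Ifit1bl1 fell from 111 ± 1.68 to 12.3 ± 0.397 CPM, and Gbp2, a guanylate-binding protein, from 42.2 ± 1.86 to 6.24 ± 0.848 CPM. Irf1, a factor that drives such genes, fell from 272 ± 13.9 to 134 ± 2.14 CPM. Ifih1, the RNA sensor MDA5, rose (0.47 ± 0.06); the rise of Mx1 (0.45 ± 0.17) was lost without vehicle replicate 3 or GW3965 replicate 1 or 3, that of Oasl1 (0.22 ± 0.08) without vehicle replicate 1 or 2 or GW3965 replicate 1 or 2, and both after epithelial rescaling. In MHC class I presentation, 11 of 19 genes fell and 3 rose (averaged counts 0 and 4). Nlrc5, the activator of class I genes, stood at 150.4, 165 and 162 CPM with vehicle and 26, 24.1 and 24.9 CPM with GW3965, and the immunoproteasome subunits Psmb8 (-2.05 ± 0.16), Psmb9 (-1.85 ± 0.14) and Psmb10 (-1.10 ± 0.06) fell. The members that rose were H2-Q1 (0.93 ± 0.08), H2-Q2 (0.86 ± 0.07) and H2-T3 (0.69 ± 0.08), and the classical H2-D1 fell (-0.32 ± 0.07). In MHC class II presentation 6 of 14 fell (42.9%) and 2 rose (14.3%), against 31.1% and 21.5% of all genes tested (averaged counts 0 and 0). Cd74, the invariant chain, stood at 1571 ± 38.9 CPM with vehicle and 1242 ± 18.8 CPM with GW3965.

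Markers of immune cells were lower for several types. Of 22 T and NK cell genes, 18 fell and 0 rose (averaged counts 0 and 5), and their summed level was 251 to 268 CPM with vehicle and 85.3 to 91.3 CPM with GW3965. Gzmb, a granzyme of killer cells, stood at 23, 26.3 and 29.6 CPM with vehicle and 3.26, 4.09 and 3.55 CPM with GW3965. Itgae, the integrin of T cells within the epithelium, fell from 47.2 ± 0.830 to 16.8 ± 1.22 CPM, and Cd5 from 6.63 ± 0.845 to 0.776 ± 0.185 CPM. Of 25 B cell and plasma cell genes, 11 fell and 1, Sdc1, which epithelium also makes, rose (0.98 ± 0.06; averaged counts 1 and 4). Igha, the heavy chain of IgA, stood at 2320.4, 2325 and 2416 CPM with vehicle and 876, 855 and 884 CPM with GW3965. Igkc fell from 708 ± 15.8 to 269 ± 7.71 CPM and Jchain from 339 ± 18.4 to 134 ± 1.77 CPM. Of 156 tested immunoglobulin variable segments, 112 fell and 13 rose. Mast cell proteases were at or near 0 with GW3965: Mcpt4 stood at 5.65, 6.02 and 4.90 CPM with vehicle and 0, 0.0413 and 0.0948 CPM with GW3965. Cpa3 stood at 3.08, 2.57 and 3.34 CPM with vehicle and at 0 reads in all 3 GW3965 libraries. Of 7 tested mast cell and granulocyte genes, 6 fell (averaged counts 0 and 4), and 14 further members of this list were not tested. Those that fell were Kit and mast cell proteases, apart from the granulocyte gene Csf3r, which is outside the naming rule. Siglecf, an eosinophil marker, was not called. Of 26 macrophage and dendritic cell genes, 18 fell and 2 rose, with averaged counts 1 and 1; Itgam fell from 16.5 ± 1.06 to 6.95 ± 0.642 CPM and C1qa from 32.4 ± 2.55 to 19.2 ± 0.565 CPM, while Mertk, an engulfment receptor, rose from 109 ± 1.15 to 313 ± 3.09 CPM, and the sum of the list was 419.8 to 432 CPM with vehicle and 505 to 514 CPM with GW3965. Of 19 cytokine and NF-kB genes, 7 fell (36.8%) and 2 rose (10.5%), against 31.1% and 21.5% of all genes tested. The averaged counts were 0 and 0, with 4 and 6 after rescaling by the median of gene ratios and 2 and 10 after epithelial rescaling. Tnf stood at 2.11, 1.75 and 1.61 CPM with vehicle and 0.378, 0.619 and 0.190 CPM with GW3965, and Relb, a subunit of NF-kB, rose (0.62 ± 0.05).

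Smooth muscle markers fell steeply. Of 20 tested, 18 fell, with a median of -2.53, and the same number fell with close libraries averaged and after epithelial rescaling; 1, Itga8, was called higher, a call lost without any 1 of the 6 libraries. Myh11, the smooth muscle myosin, stood at 2342, 2334 and 2424 CPM with vehicle and 352, 365 and 355 CPM with GW3965. Actg2 stood at 729, 726 and 756 CPM with vehicle and 55, 51.7 and 53.1 CPM with GW3965. Myl9, a myosin light chain, stood at 390.2, 368 and 408 CPM with vehicle and 48.4, 52.3 and 47.9 CPM with GW3965. Flna, an actin crosslinker of many cells, fell from 2137 ± 94.1 to 433 ± 16.8 CPM. Each group was tight and the vehicle libraries lay within or near the range of floxed vehicle libraries, which was 2346 to 2366 CPM for Myh11.

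**Figure D4:**
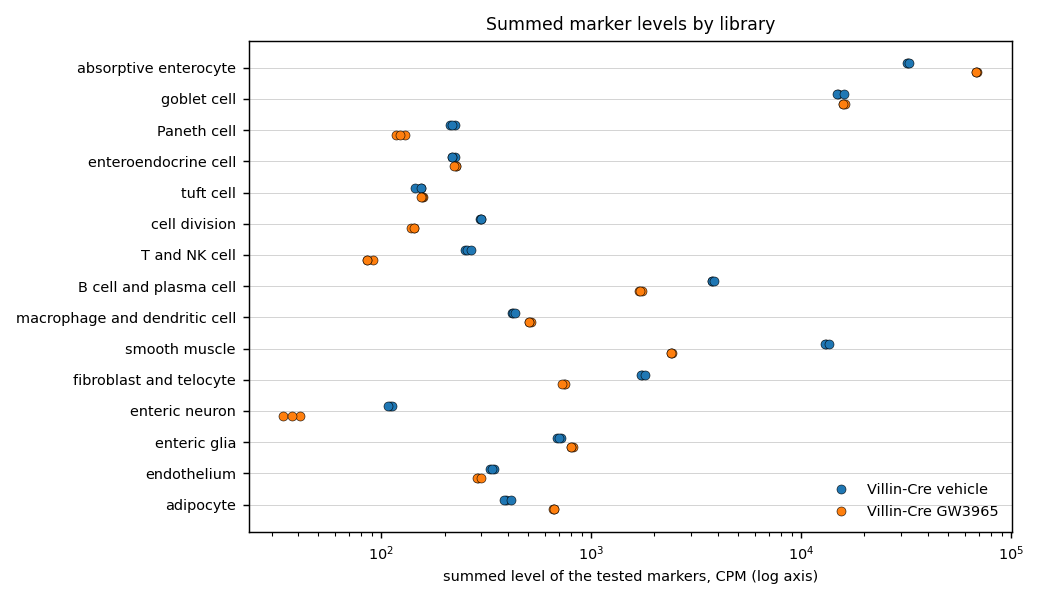
Summed CPM of the tested markers of 15 cell types or states in each of the 6 Villin-Cre libraries, on a log axis. With GW3965 the sums of smooth muscle, fibroblast, neuron, T cell and plasma cell markers are lower in all 3 libraries, those of enterocyte and adipocyte markers are higher, and those of goblet and tuft cell markers overlap or nearly so.

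Other cells of the bowel wall moved with them. Of 38 collagen and matrix genes, 34 fell and 0 rose (median -1.24, averaged counts 0 and 19). Eln, elastin, stood at 34.2, 30.1 and 32.2 CPM with vehicle and 5.76, 5.65 and 5.16 CPM with GW3965. Col4a1 of the basement membrane fell from 406 ± 16.8 to 144 ± 6.54 CPM, and Timp2, a protease inhibitor, from 65.7 ± 2.91 to 17.6 ± 0.237 CPM. Of 24 fibroblast genes, 18 fell and 2 rose (averaged counts 1 and 7). Grem1, which shields the crypt from BMP signals, stood at 102, 105 and 99.7 CPM with vehicle and 18.9, 17.6 and 19 CPM with GW3965. Dpt fell from 40.6 ± 2.60 to 3.66 ± 0.671 CPM, and Dcn from 75 ± 0.656 to 15.6 ± 1.49 CPM, while Sox6 rose from 61.3 ± 2.08 to 139 ± 1.72 CPM. Of 24 neuron genes, 22 fell and 1, Ret, rose, a call lost without GW3965 replicate 1 and after epithelial rescaling (averaged counts 0 and 6): the neuropeptide gene Gal stood at 16.7, 17.1 and 16.4 CPM with vehicle and 1.42, 1.53 and 1.18 CPM with GW3965. Nos1, which makes nitric oxide in inhibitory neurons, fell from 10.5 ± 0.316 to 2.30 ± 0.182 CPM. Glial genes were mixed, with 7 of 11 lower and 2 higher (averaged counts 0 and 1); Sox10 fell from 3.77 ± 1.03 to 0.722 ± 0.284 CPM, and Erbb3, which epithelium also makes, rose from 612 ± 14.7 to 750.3 ± 11.2 CPM, with the sum of the list at 689 to 717 CPM with vehicle and 801 to 819 CPM with GW3965. Ano1, the pacemaker channel of interstitial cells of Cajal, fell from 20.1 ± 2.47 to 6.07 ± 1.03 CPM and Kit from 22.9 ± 1.66 to 9.09 ± 0.591 CPM, 2 of the 7 that fell among 8 (averaged counts 0 and 5).

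Vessel and fat markers were mixed. Of 22 endothelial genes, 8 fell (36.4%) and 2 rose (9.09%), against 31.1% and 21.5% of all genes tested. The averaged counts were 0 and 0, and after epithelial rescaling 16 fell and 1 rose. Eng fell from 20.8 ± 0.470 to 11.7 ± 0.871 CPM, Emcn rose from 40.7 ± 2.16 to 58.3 ± 2.83 CPM and Plvap was not called (-0.03 ± 0.10). Of 16 adipocyte genes, 9 rose and 2 fell (averaged counts 3 and 0; 11 and 1 after rescaling by the median of gene ratios and 9 and 4 after epithelial rescaling): Cidec, a lipid droplet protein, stood at 22.8, 20.3 and 21.5 CPM with vehicle and 66.1, 68.7 and 77.6 CPM with GW3965. Car3 rose from 27.1 ± 1.67 to 72.1 ± 5.64 CPM and Fabp4 from 17.7 ± 1.82 to 41.2 ± 0.774 CPM, and Plin4 fell from 47.6 ± 2.29 to 29.1 ± 0.971 CPM. None of 5 red blood cell genes was called (Hbb-bs 0.04 ± 0.24). Of 9 mesothelial genes, 6 fell (averaged counts 0 and 0), among them Krt8 and Krt19, which epithelium also makes. Krt8 also belongs to the genes used for the epithelial rescaling. Of 14 genes of neighbouring organs, 2 fell (averaged counts 0 and 0; 1 to 3 lower without 1 library and 4 after epithelial rescaling), their sum was at most 34.1 CPM, and Amy2a5, Ins2, Pgc, Tff1, Gkn1 and Gkn2 were at 0 reads in all 6 libraries. The rises of enterocyte genes and the falls of wall, nerve and immune genes thus occurred in the same 3 libraries, and their part in each other was not tested.

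Every tested gene of the circadian clock changed, in one direction or the other. Of 18 tested, 13 rose and 5 fell (averaged counts 7 and 1). Per2, a repressor of the clock, stood at 36.7, 33.6 and 38.1 CPM with vehicle and 165, 169 and 161 CPM with GW3965. Nr1d1, which represses Arntl, stood at 65.1, 71.5 and 69.4 CPM with vehicle and 149.9, 145 and 148 CPM with GW3965. Among those that fell, Arntl, the clock's activator, stood at 39.6, 43.2 and 34.5 CPM with vehicle and 15, 14.6 and 16.3 CPM with GW3965. Nfil3, which opposes the output factor Dbp, stood at 29.8, 28.1 and 28.9 CPM with vehicle and 3.07, 2.60 and 3.17 CPM with GW3965. The others that fell were Npas2, a partner of Arntl (-0.72 ± 0.22), Cry1 (-0.55 ± 0.13) and Bhlhe41 (-1.29 ± 0.31). The activators Arntl and Npas2 were thus lower, and Per2 and Nr1d1, which they drive, higher. Not all members divided this way. Clock, another partner of Arntl and named here outside the naming rule, was called higher. Cry1 and Bhlhe41, which the activators also drive, fell. The Villin-Cre vehicle libraries lay outside the floxed vehicle range for Per2, Nr1d1, Arntl, Nfil3, Npas2, Cry1 and Bhlhe41. For Arntl that range was 12.9 to 15.6 CPM, near the GW3965 libraries. The time of day of tissue collection is not in the labels used here, and its part was not tested.

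**Figure D5:**
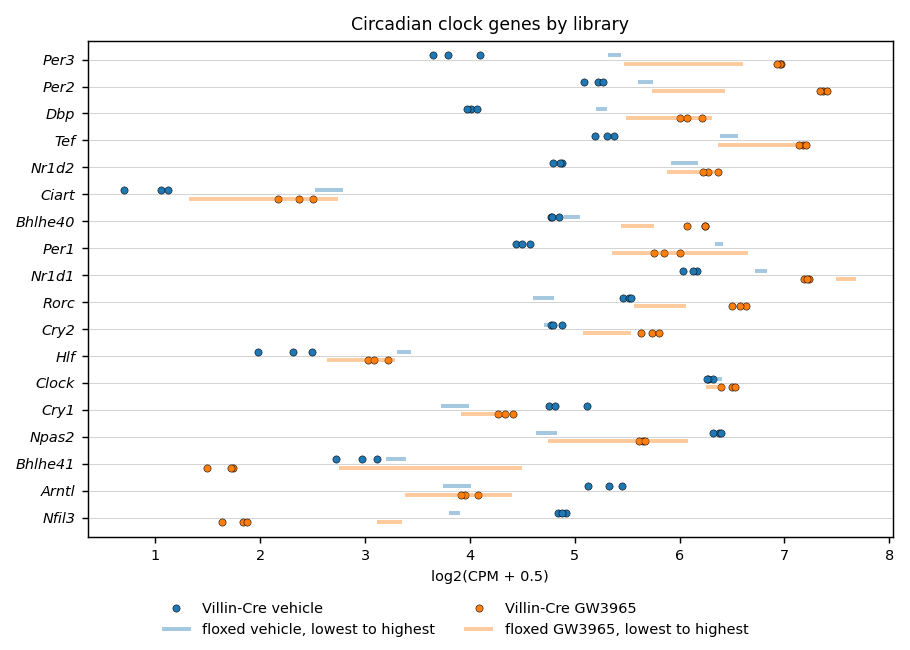
Levels of the 18 tested circadian clock genes as log2(CPM + 0.5), ordered by their change; points are the Villin-Cre libraries and pale bars span the 3 floxed libraries. The upper 13 genes are higher with GW3965 (orange to the right of blue) and the lower 5, from Cry1 to Nfil3, are lower.

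Stress and immediate early genes changed in both directions; the shares higher and lower were 28.6% and 38.1% for the integrated stress response and 35.0% and 45.0% for immediate early genes, against 21.5% and 31.1% of all genes tested. Of 20 immediate early genes, 7 rose and 9 fell (averaged counts 2 and 2): Fosl2, a villus tip AP-1 factor, rose from 299 ± 3.70 to 769 ± 14 CPM, Btg2 from 57.6 ± 5.48 to 125 ± 5.30 CPM and Fos from 56.9 ± 1.12 to 101 ± 2.65 CPM, and Egr1 fell from 22.4 ± 1.77 to 7.39 ± 0.914 CPM. For the unfolded protein response 10 of 23 rose and 9 fell (averaged counts 0 and 0; 12 and 5 after rescaling by the median of gene ratios and 3 and 12 after epithelial rescaling). Herpud1, part of the disposal of misfolded proteins, rose from 56 ± 3.61 to 119 ± 5.25 CPM, and Ern1, the sensor IRE1-alpha, fell from 70.6 ± 4.35 to 44.9 ± 0.953 CPM. In the integrated stress response, 6 of 21 rose and 8 fell (averaged counts 2 and 0), with Trib3 at 5.40, 5.49 and 5.71 CPM with vehicle and 14.2, 16.6 and 14.7 CPM with GW3965 and Atf4, the factor of this response, not called (0.11 ± 0.06). Of 15 hypoxia genes, 7 rose and 3 fell (averaged counts 2 and 0; 7 and 3 after rescaling by the median of gene ratios and 5 and 6 after epithelial rescaling); Vegfa, the vessel growth factor, rose from 132 ± 2.06 to 363 ± 14.7 CPM and Pdk1 fell from 24.9 ± 3.85 to 14.8 ± 1.37 CPM.

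Junction genes and genes of nitrogen metabolism also moved. Of 22 junction genes, 12 rose and 5 fell (averaged counts 2 and 0; 14 and 4 after rescaling by the median of gene ratios and 8 and 7 after epithelial rescaling). Cldn15, which forms sodium channels between enterocytes, stood at 121, 125 and 127 CPM with vehicle and 251, 251 and 248 CPM with GW3965. Epcam, present in all epithelial cells, stood at 1032, 1021 and 1056 CPM with vehicle and 1821, 1851 and 1805 CPM with GW3965. Cldn2, a pore-forming claudin of crypts, fell from 69.9 ± 0.882 to 46.8 ± 3.97 CPM and Tjp3 from 344 ± 21.5 to 226 ± 3.68 CPM. Of 14 genes of the urea cycle and arginine, 7 rose and 4 fell (averaged counts 3 and 1; 8 and 4 after rescaling by the median of gene ratios and 4 and 5 after epithelial rescaling). Glud1, which releases ammonia from glutamate, stood at 107, 104 and 111 CPM with vehicle and 247, 236 and 244 CPM with GW3965. Arg2, the mitochondrial arginase, rose from 14.4 ± 1.99 to 44.5 ± 0.734 CPM, while Ass1 fell from 8.0 ± 1.56 to 1.70 ± 0.368 CPM.

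The most abundant RNAs of these libraries also differed. Gm26917, a predicted gene, took 11.5%, 11.5% and 12.2% of the reads with vehicle and 4.02%, 4.20% and 3.92% with GW3965. The signal recognition particle RNAs Rn7s1, Rn7s2 and Rn7s6 fell with it, Rn7s2 from 20314 ± 3332 to 9169.6 ± 199 CPM, as did Gm23935 (from 31014 ± 6691 to 14240.4 ± 1961 CPM), while Gm42418 overlapped between groups (24358, 23363 and 12344 CPM with vehicle and 9969.5, 22518 and 20819.5 CPM with GW3965). Malat1 rose from 7918 ± 329 to 9939.9 ± 435 CPM and Actb from 7457 ± 279 to 9585 ± 63.2 CPM. Protein-coding genes together rose from 726484 to 854901 CPM on average, so that every CPM of a protein-coding gene includes this shift. None of the scalings given with the overall counts sets the libraries to the protein-coding total. Those scalings moved the median change of all genes in both directions.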

How the data were processed

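Ileal RNA had been freed of ribosomal RNA with RNase H, primed with random hexamers and read as pairs of 150 bases, per the labels' protocols. The processing notes of the submitters name GRCm38, featureCounts 1.4.6-p5 of Subread, STAR 2.5.1a and bcl2fastq; they name neither the annotation release, the strand setting nor the log formula. The authors deposited log2 values per gene, which were read as log2 of CPM plus a small prior: taken out of the log, all low values (up to 1000 reads) were whole multiples of 1 read within 0.05 reads. Among only the smallest recovered values above 0, between 66.7% and 70.4% in the 6 Villin-Cre libraries were even. Both mates of a pair were thus mostly counted, and reads are not independent molecules.

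Of 40757 entries, 276 exact repeats were dropped, leaving 40481 genes; 18656 with at least 0.5 CPM in at least 3 of the 12 ileal libraries were tested on log2(CPM + 0.5) in R 4.3.3 (limma 3.58.1), with 1 mean for each of the 4 ileal groups, a mean-variance trend, 8 residual degrees of freedom and Benjamini-Hochberg adjustment at 0.05. Depth was 17.0 to 24.2 M assigned reads over the 12 libraries. Gene coordinates, all 18656 matched by ID, come from GENCODE M21 (GRCm38). The scripts were tested on simulated data. The genes named are Abca1, all tested LXR targets, the 12 largest called changes each way without overlap whose higher group averaged 1 CPM or more, the 10 most abundant genes, and for each list up to 4 called members with the smallest p, up to 2 of highest level and called members against the list's direction. Genes outside this rule are said to be so, and some genes are not reported here. The lists, the rule and the genes were chosen with earlier results of these data known. Alternatives covered scaling, filter, pseudocount, voom on recovered reads, the log2 values as deposited, a replicate block, the 6 libraries alone, averaging of close libraries and leaving out each library.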

Additional observations from a re-analysis of the deposited data

Results flagged for a closer look

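The change with GW3965 differed between Villin-Cre and floxed ileum by limma's test of the difference for 6154 genes, and the following named genes were among them. The values are log2 differences of the changes, Villin-Cre minus floxed. For the deleted gene Abca1 the value was -1.73. Among LXR targets it was -0.829 for Abcg8, -0.962 for Abcg5, -0.747 for Scd1, -2.4 for Scd2, -2.14 for Srebf1, -1.27 for Fasn, -0.813 for Acaca, -1.01 for Pltp, -0.97 for Mylip, -1.84 for Abcg1, -1.79 for Slc2a4, -1.5 for Arl4c, -0.907 for Lpl, -0.633 for Smpdl3a and -0.382 for Myo1d. It was above 0 for Apoc2 (2.06), Ttc39b (1.12) and Nr1h3 (0.371).

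Among the genes with the largest rise, the difference was 8.66 for Plb1, which fell in floxed ileum, 6.13 for Gstm3, 5.76 for Lemd1, 5.33 for Cyp2c55, 5.27 for Lct and 3.43 for Cyp3a11. Among those with the largest fall, it was -7.49 for Saa1, -7.15 for Apol8, -6.04 for Bpifc, -5.73 for Ppef1, -5.5 for Zfp652 and -2.73 for Ubd. The 2 genotypes also differ at baseline for several of these genes: Plb1 stood at 111 to 116 CPM in floxed and 3.77 to 5.04 CPM in Villin-Cre vehicle libraries.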

How the results depend on the processing

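Averaging close libraries moved the counts most: 580 genes were higher, 881 lower and 14 differed between genotypes, and 167 of the 378 named genes that were called kept their call; fewer units enter that fit, and its spread rests on 1 pair of floxed GW3965 units. Under each of the other settings 352 to 378 of those 378 kept their call. Without 1 library at a time, 3498 to 3701 genes were higher, 5185 to 5335 lower and 5417 to 5621 differed between genotypes. The libraries share replicate numbers, but the numbers do not pair them: the correlation of deviations was 0.0072, 0.0063 and 0.0010 for equal numbers and -0.0161 to 0.0094 for unequal ones, and not every library correlated best with its own number; with a replicate block, 4004 genes were higher, 5823 lower and 6132 differed between genotypes. After rescaling by 8 epithelial genes, chosen after seeing the data, the change of Atp5a1 was -0.1688, of Rpl28 -0.02888 and of Slc25a15 -0.05112, against 0.02, 0.16 and 0.14. Counts of at least 2-fold changes depend on the pseudocount: with 2 in place of 0.5, 608 were higher and 1230 lower, and on the deposited log2 values 1036 and 3072. Genes under 0.5 CPM in most ileal libraries were not tested at this depth.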
